A study of Caenorhabditis elegans with 12 samples.

Results

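Histone genes were followed in embryos of Caenorhabditis elegans, taken whole at the 3-fold stage, when the embryo is elongated and most embryonic cell divisions have ended. The genes were those whose symbol begins with his- or hil- followed by a digit, together with htz-1 and hcp-3, where the array carried a probe set annotated to that gene alone. This gave 36 genes of 17118 with such a probe set, and 42 of the 22548 probe sets tested. A gene with more than 1 probe set was represented by its brightest. The embryos were of 3 genotypes. The double mutant, strain JT6924, carried daf-19(m86) and daf-12(sa204), the daf-12 mutant, strain JT204, carried daf-12(sa204), and the wild type was N2 Bristol, strain JT5010. The daf-12 mutation was therefore shared by both mutants, and the double mutant differed from the daf-12 mutant by the label in daf-19. DAF-19 is an RFX transcription factor needed for sensory cilia. DAF-12, a nuclear hormone receptor, acts in the choice between dauer and reproductive growth. Each genotype was labelled with 4 replicates, but arrays 1 and 2 of the double mutant held the same values and were counted as 1, here called array 1-2. This left 3 double mutant, 4 daf-12 mutant and 4 wild type arrays.

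Histones package DNA. The core histones H2A, H2B, H3 and H4 form the nucleosome around which DNA is wound, and linker histone H1 binds where DNA enters and leaves it. Most core histone genes are expressed with DNA replication and lie in clusters of near-identical copies, and their mRNAs end in a stem-loop in place of a poly-A tail. Variant histones are laid down outside replication. H3.3 replaces H3 in active chromatin, H2A.Z lies near promoters, and CENP-A marks the centromere, which in this worm is spread along each chromosome.

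Of the 36 genes, 18 encode core histones. These were 4 H2A genes (his-3, his-35, his-61 and his-68), 3 H2B genes (his-4, his-41 and his-62), 5 H3 genes (his-2, his-6, his-32, his-42 and his-59) and 6 H4 genes (his-1, his-31, his-37, his-38, his-64 and his-67). The 7 variants were htz-1 (H2A.Z), hcp-3 (CENP-A), his-71 and his-72 (H3.3), and his-69, his-70 and his-74, which are H3.3-like. The 9 linker genes were his-24 and hil-1 to hil-8. No class was assigned here to his-39 and his-73. The probe set names of 17 of the 36 genes end in x_at and those of 5 in s_at, endings the manufacturer gives to probe sets that can hybridise to more than 1 transcript. A value of such a gene may therefore hold the RNA of several near-identical copies. A further 24 probe sets were annotated to several genes including a histone gene. They covered 54 histone genes, of which 46 were not among the 36, and they are described separately where they bear on a result.

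The arrays had medians between 6.20 and 6.37 on the deposited log2 scale, on which 1 unit is a doubling. Poly-A spike-in controls, 24 probe sets, averaged 4.16 to 4.32 on arrays numbered 1 or 2 and 7.16 to 10.21 on arrays numbered 3 or 4, in all genotypes. The labels name no batch, so these are called the first and the second set of arrays here, and results are given for both. In the double mutant the first set is a single array. Muscle, epidermis, intestine and neuron markers were above the median of all probe sets for 8 of 8, 10 of 10, 8 of 8 and 8 of 9 genes, against 7 of 15 for early embryo, 3 of 9 for primordial germ cell and 6 of 14 for sperm. The labels do not state whether replicates were separate cultures, so each p-value covers the spread between these samples alone. Precision is limited by how few arrays there were.

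The histone probe sets spanned nearly the whole range of signal. The brightest were those of hil-7, a linker H1 gene, with a mean of 13.75 over the 11 arrays, his-72 at 12.70, his-35 at 11.42, his-41 at 11.19 and his-37 at 11.10. The dimmest were those of his-73 at 4.05, hil-8 at 4.25 and his-70 at 4.61. Probe sets differ in how they bind, so these means order signals and not amounts of RNA. Variation between arrays was shared by many of the genes. The mean deviation of the 36 genes from their own averages was 0.52 and 0.43 on double mutant arrays 3 and 4, and -0.27 on array 1-2. On daf-12 mutant arrays 1 to 4 it was -0.09, -0.02, -0.37 and -0.36. On wild type arrays 1 to 4 it was 0.05, -0.28, 0.33 and 0.06. The highest arrays were thus those of the double mutant in the second set, and the lowest were those of the daf-12 mutant in the second set.

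**Figure D1:**
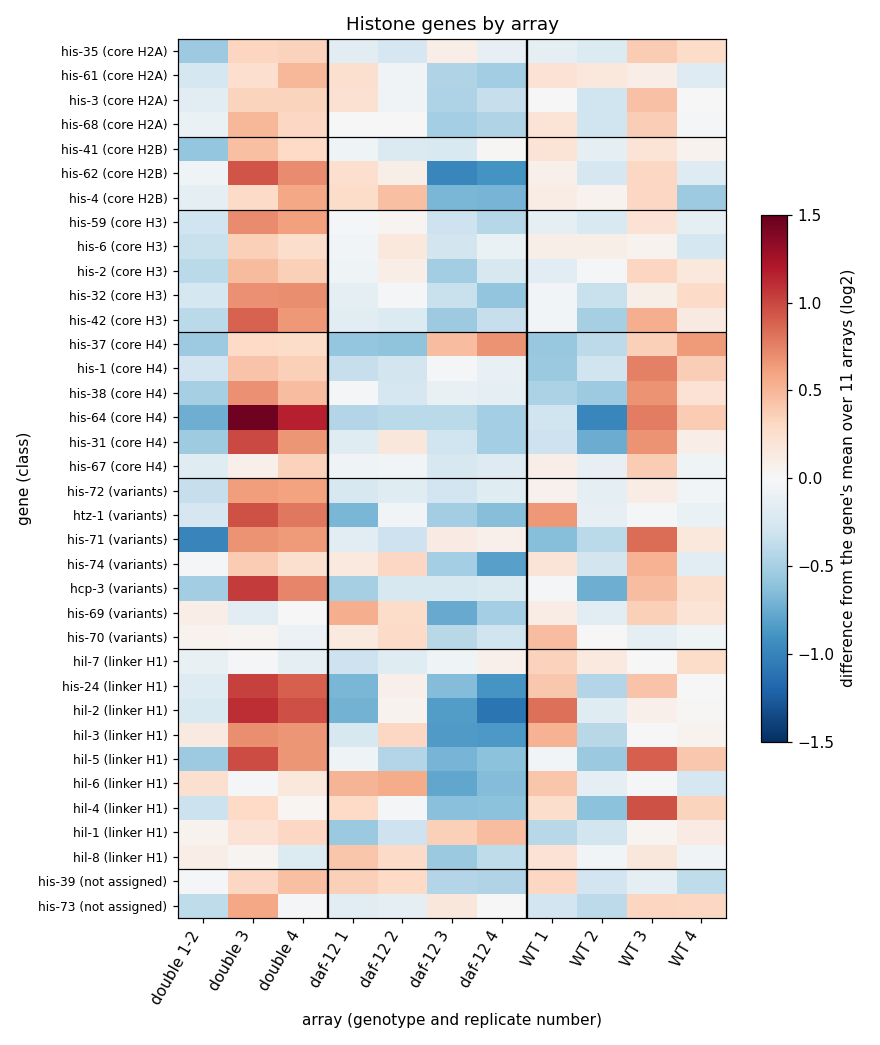
Each row is a histone gene with its class, each column is 1 of the 11 arrays, and the colour is the log2 difference from the gene's own mean over the arrays. Double mutant arrays 3 and 4 average 0.52 and 0.43 above the genes' means, and daf-12 mutant arrays 3 and 4 average 0.37 and 0.36 below them.

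Double mutant and daf-12 mutant embryos differ in their labels by daf-19(m86) alone. No histone gene passed the test. All 36 had a higher mean in the double mutant, with a median log2 difference of 0.35, while 48.3% of all tested probe sets were higher and the median over all genes was -0.02. Over the 14 genes whose probe sets do not end in x_at or s_at, the median was 0.189 and all 14 were above 0. These means give the second set more weight in the double mutant, whose first set is a single array. With the set of arrays added to the model, his-37, which is in both counts, was below 0 at -0.15. By limma with Benjamini-Hochberg adjustment over all tested probe sets, 0 of the 36 were called at an adjusted p under 0.05, and the smallest adjusted p was 0.682. The same test called 0.0577% of all probe sets. At an unadjusted p under 0.05, 8 of the 36 were higher (22.2%) and 0 lower, against 2.53% of all probe sets higher and 2.39% lower. No histone gene had arrays that separated the genotypes completely, which 2.29% of all probe sets did upwards and 2.97% downwards. Since whole embryos were measured, fewer cells of a type and less RNA per cell cannot be told apart in any of these values.

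The largest differences were in linker genes, a core H4 gene and H2A.Z. For hil-2, an H1-like linker gene, the double mutant gave 10.18 on array 1-2, 11.51 on array 3 and 11.37 on array 4, and daf-12 mutant arrays 1 to 4 gave 9.70, 10.46, 9.57 and 9.31. Wild type arrays 1 to 4 gave 11.24, 10.22, 10.48 and 10.43. The second set of the double mutant lay above every other array, while array 1-2 lay below daf-12 mutant array 2, so the mutants overlapped. The difference was 1.26 ± 0.37 (log2, SE, n = 3 and 4, limma adjusted p = 0.682).

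The gene his-24 encodes the worm's H1.1 linker histone. It gave 10.90, 12.11 and 11.98 in the double mutant, 10.40, 11.16, 10.43 and 10.20 in the daf-12 mutant and 11.49, 10.65, 11.51 and 11.09 in the wild type. By this probe set double mutant arrays 3 and 4 were again the highest of all, and daf-12 mutant array 2 exceeded double mutant array 1-2. The difference between the mutants was 1.11 ± 0.34 (SE, limma adjusted p = 0.694), and the other probe set of his-24 gave 0.69. In that other probe set double mutant arrays 3 and 4 gave 11.309 and 11.425. Wild type array 1 (11.939) and daf-12 mutant array 2 (11.468) lay above both.

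The H2A.Z gene htz-1 gave 10.76, 11.97 and 11.80 in the double mutant, 10.33, 10.98, 10.49 and 10.38 in the daf-12 mutant and 11.67, 10.89, 10.98 and 10.91 in the wild type. Its difference between the mutants was 0.97 ± 0.31 (SE, limma adjusted p = 0.744), with 0.50 from its other probe set. By the brightest probe set the pattern followed that of the linker genes, with double mutant arrays 3 and 4 on top and the mutants overlapping through array 1-2. In the other probe set of htz-1, double mutant array 3 (7.417) lay below wild type arrays 1 and 4 (7.448 and 7.431). The core H4 gene his-64 gave 5.94, 8.13 and 7.84 in the double mutant, 6.23, 6.26, 6.26 and 6.17 in the daf-12 mutant and 6.37, 5.69, 7.44 and 7.05 in the wild type. It differed by 1.07 ± 0.50 between the mutants (SE, limma adjusted p = 1). Its daf-12 mutant arrays were nearly equal, while its double mutant arrays spread over more than 2 log2 units and so overlapped them.

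**Figure D2:**
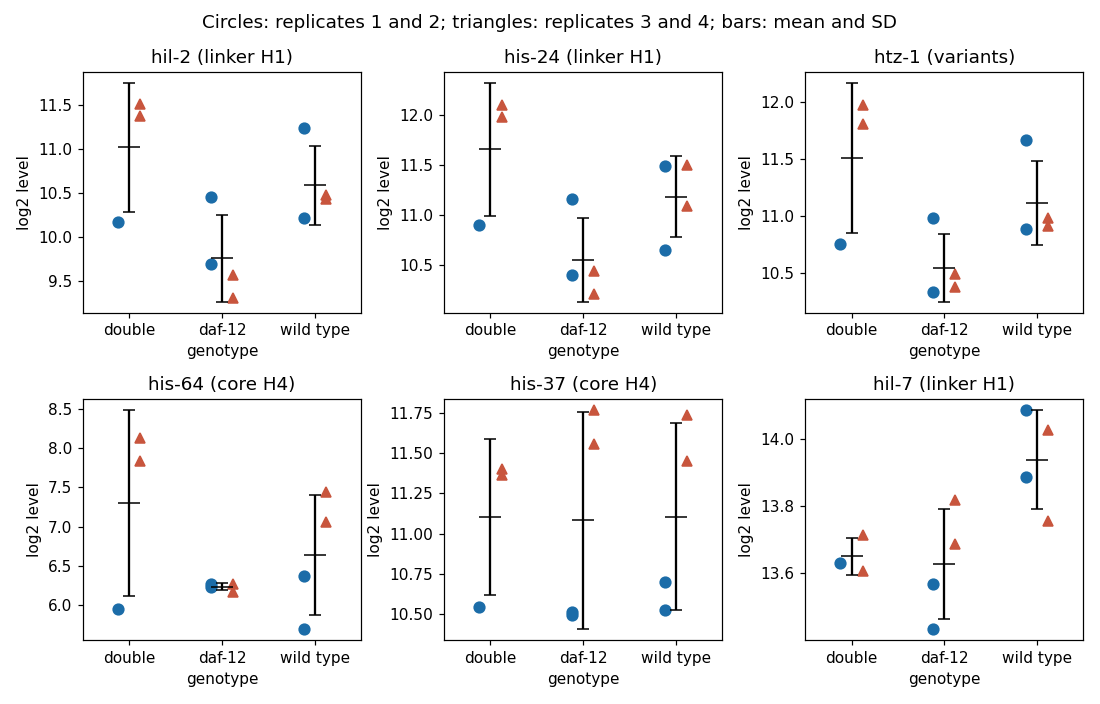
The log2 level of 6 histone genes, each by its brightest probe set, is on the vertical axes, with genotype on the horizontal axes. Circles mark arrays 1 and 2, triangles mark arrays 3 and 4, and bars give the mean and SD. In hil-2, his-24, htz-1 and his-64 the triangles of the double mutant lie above its circle and above every daf-12 mutant array. The points of his-37 are separated by set in all 3 genotypes. In hil-7 all double mutant points lie below all wild type points.

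At the other end, 4 genes differed little between the mutants. These were his-37 at 0.02, hil-7 at 0.02, hil-8 at 0.03 and his-70 at 0.07. The probe sets of hil-8 and his-70 were among the 3 dimmest, with means of 4.25 and 4.61, so their small differences say less. The bright hil-7 gave 13.63, 13.71 and 13.61 in the double mutant, 13.43, 13.57, 13.69 and 13.82 in the daf-12 mutant and 14.09, 13.89, 13.76 and 14.03 in the wild type. All double mutant arrays of hil-7 lay below all wild type arrays in this probe set, and 1 of its other probe sets overlapped. Over its 3 probe sets the difference between the mutants ranged from 0.02 to 0.05.

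By class, the median difference between the mutants was 0.35 for H2A, 0.41 for H2B, 0.52 for H3 and 0.35 for H4. It was 0.41 for the variants and 0.25 for the linker genes. The linker genes covered the whole range of the 36, from 0.02 in hil-7 to 1.26 in hil-2. Between these lay hil-3 at 0.91, hil-5 at 0.82, hil-4 at 0.25, hil-6 at 0.22 and hil-1 at 0.20. Among the variants, the CENP-A gene hcp-3 differed by 0.72, the H3.3 gene his-72 by 0.52, his-74 by 0.41, the H3.3 gene his-71 by 0.17 and his-69 by 0.08. The core H2A gene his-35 differed by 0.16, and his-73 by 0.08. The 24 probe sets shared by several genes were also all above 0, with a median of 0.46 and the highest class median, 0.84, in the 6 shared H2B probe sets. With the set of arrays added to the model, the probe set of his-10, his-26 and his-14 was at -0.105. The shared probe sets overlap the 36 in sequence and are no independent count.

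The median difference between the mutants had opposite signs in the sets of arrays. Within the first set the median over the 36 genes was -0.25 and 8 were above 0, where 43.7% of all probe sets were. Within the second set it was 0.81 and 33 were above 0, where 55.1% of all probe sets were. A limma fit of the second set alone, with 2 arrays per genotype, called 18 of the 36 higher and 0 lower, while it called 3.73% of all probe sets higher and 8.39% in either direction. A fit of the first set alone called 0 of the 36 and 0 of all probe sets.

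The 18 genes that were higher in the second set came from every class. They held linker genes hil-2, with a log2 difference of 2.00 ± 0.18 (SE, limma adjusted p = 0.00519), hil-3 (1.54), hil-5 (1.48), his-24 (1.73) and hil-6 (0.78). They held the H2A.Z gene htz-1 at 1.45 ± 0.17 (SE, limma adjusted p = 0.00817), hcp-3 (1.12) and the H3.3 gene his-72 (0.86). The core genes among them were his-62 of H2B (1.77 ± 0.22, limma adjusted p = 0.0097), his-64 and his-31 of H4 (1.77 and 1.23), and 4 of H3, namely his-42, his-32, his-59 and his-2 (1.21, 1.15, 1.03 and 0.80). The H2A genes his-68 and his-61 (0.88 and 0.86) and the unassigned his-39 (0.82) completed the 18. The remaining 18 included hil-1 (-0.15), hil-7 (-0.09) and his-37 (-0.28), whose differences within that set were below 0.

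Other measured features moved between the same arrays. Markers of sperm had a median difference of -0.47 between the mutants within the first set and 0.67 within the second. Their list mean in the second set was 5.65 and 5.92 on the double mutant arrays and 5.12 and 5.25 on the daf-12 mutant arrays. Epidermis markers had medians of 0.00 and 0.69, muscle markers of 0.21 and -0.41, neuron markers of 0.21 and -0.34, and primordial germ cell markers of -0.26 and 0.21. Intestine markers had -0.14 and 0.06, and early embryo markers -0.04 and 0.14. DNA replication genes had 0.01 and 0.76. The part of embryo composition or stage in the histone values was not tested.

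**Figure D3:**
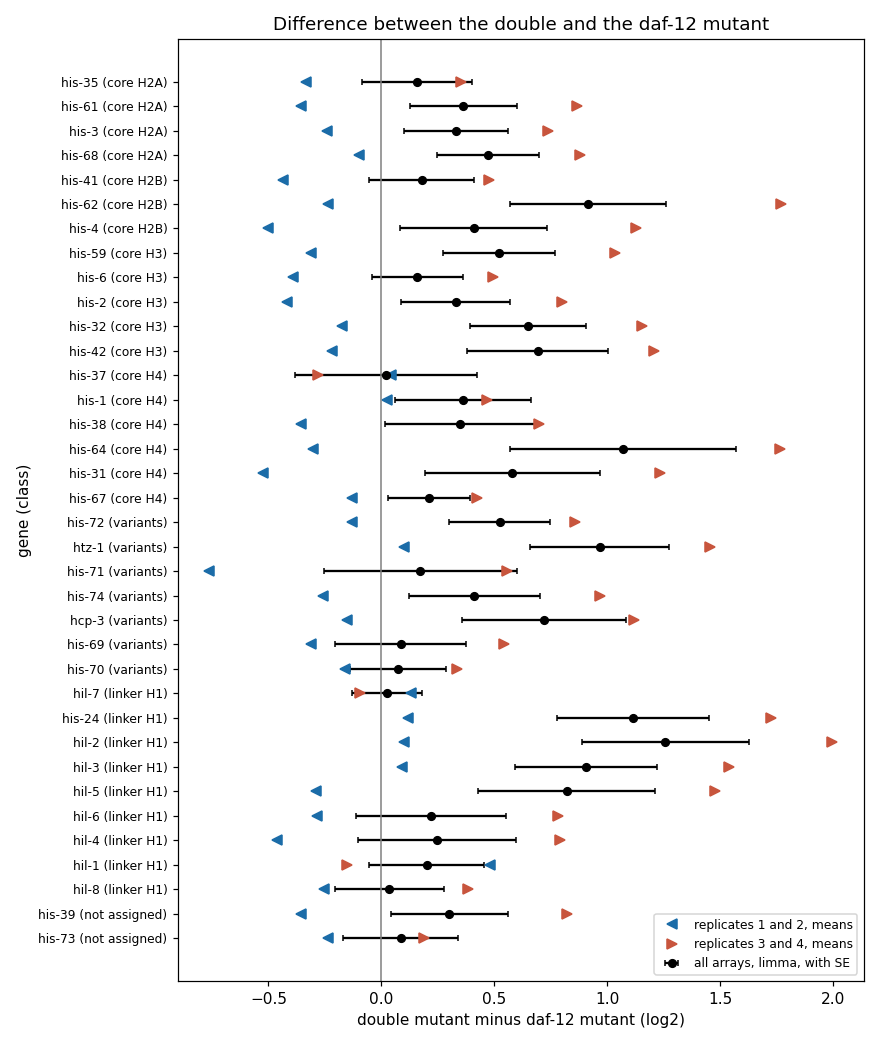
The log2 difference of the double mutant from the daf-12 mutant (horizontal axis) is drawn for each histone gene, with black points and bars for the limma estimate over all arrays and its SE, left-pointing triangles for the first set of arrays and right-pointing triangles for the second. All 36 black points, fitted without set in the model, are above 0, with a median of 0.35. The medians of the triangles are -0.25 in the first set and 0.81 in the second.

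Whether the difference between the mutants itself differed between the sets was tested as an interaction in limma. It called 0 of the 36 and 0 of all probe sets, and the smallest adjusted p among the histone genes was 0.113. At an unadjusted p under 0.05, 28 of the 36 (77.8%) differed upwards and hil-1 downwards, while 8.96% of all probe sets differed upwards. The largest interactions were those of his-64 at 2.07 ± 0.40 (SE), his-62 at 2.00 ± 0.35, hil-2 at 1.90 and hil-5 at 1.76. The lowest were hil-1 at -0.63, his-37 at -0.32, hil-7 at -0.23 and his-73 at 0.43. The count depended on the wild type arrays, which enter only through the spread. Without wild type array 3 or without wild type array 4, the fit called 11 of the 36 and 5.14% of all probe sets.

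The double mutant was also compared with the wild type, from which it differs at both loci. This comparison shares its double mutant arrays with the one above. No histone gene passed, with 0 of 36 called by limma and 0.115% of all probe sets called, and at an unadjusted p under 0.05 0 of the 36 differed, where 1.93% of all probe sets were higher and 2.08% lower. The median difference was 0.15 and 29 of the 36 were above 0, where 44.3% of all probe sets were. Over the 14 genes whose probe set endings mark them as unique, the median was 0.003 and 8 were above 0. The largest values were his-64 at 0.66 ± 0.50 (SE), his-62 at 0.55, his-24 at 0.48 and hil-3 at 0.46. The lowest were hil-7 at -0.29 ± 0.15 (SE, limma adjusted p = 1), hil-4 at -0.23, his-69 at -0.15 and hil-8 at -0.10. hil-7 was the only one of the 36 whose double mutant and wild type arrays did not overlap, by its brightest probe set, and 2.66% of all probe sets separated that way. Within the first and second sets the medians were -0.13 and 0.22. The interaction with set called 0 of the 36 and 0 of all probe sets, and 7 of the 36 were higher at an unadjusted p under 0.05, where 4.47% of all probe sets were. Its largest values were in hil-2 (1.54), htz-1 (1.46), his-24 (0.92) and his-72 (0.89). The other probe sets of htz-1 and his-24 gave 0.37 and 0.36, so their place depended on the probe set. The lowest values were his-69 (-0.49), hil-4 (-0.34), his-1 (-0.31) and hil-1 (-0.22).

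The daf-12 mutant compared with the wild type asks about daf-12(sa204) alone. Histone genes were mostly lower in the mutant, but none passed. The median difference was -0.23 and 2 of the 36 were above 0, hil-1 at 0.12 and his-39 at 0.07, where 43.8% of all probe sets were above 0. By limma 0 of the 36 were called, and 0.0133% of all probe sets were. At an unadjusted p under 0.05, hil-2 was lower at -0.83 ± 0.34 (SE, limma adjusted p = 1), where 1.09% of all probe sets were lower. Next came his-24 at -0.64, hil-5 at -0.63 and htz-1 at -0.57. The next highest values after hil-1 and his-39 were his-73 and his-37, both at -0.02.

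The H3.3 gene his-72 was the only one of the 36 whose arrays separated these genotypes, and 0.723% of all probe sets separated in that direction. It gave 12.46, 12.52, 12.41 and 12.52 in the daf-12 mutant and 12.77, 12.57, 12.82 and 12.67 in the wild type. All 4 mutant arrays lay below all 4 wild type arrays, by a narrow margin. In the other probe set of his-72 they overlapped, with daf-12 mutant values up to 9.86 and wild type values down to 9.75. The difference was -0.23 ± 0.21 (SE, limma adjusted p = 1). The double mutant gave 12.36, 13.33 and 13.30, which is below both groups on array 1-2 and above both on arrays 3 and 4.

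Within the sets, the medians for the daf-12 mutant against the wild type were 0.09 and -0.58, and 2 of the 36 were above 0 in the second set, where 43% of all probe sets were. A fit of the second set alone called 0 of the 36 here and 0 of the 36 for the double mutant against the wild type. It called 0.0577% and 0.874% of all probe sets in either direction, and 0.297% higher in the double mutant. The interaction with set called 0 of the 36 and 0 of all probe sets, with a smallest adjusted p of 0.149 in his-69. At an unadjusted p under 0.05, 17 of the 36 (47.2%) were lower, where 7.41% of all probe sets were. The lowest interactions were in hil-4 (-1.59), hil-5 (-1.35), his-69 (-1.34) and his-31 (-1.31), and the highest in hil-1 (0.42), hil-7 (0.35), his-37 (0.18) and htz-1 (0.11, with -0.58 from its other probe set). Without wild type array 1 the fit called 3 of the 36 and 2.16% of all probe sets, and without wild type array 4 it called 12 of the 36 and 12.2%.

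The sets of arrays were compared next, over all genotypes and with genotype in the model. Between the second and the first set 10 of the 36 histone genes changed, 9 upwards and 1 downwards. By limma, 10.9% of all probe sets were called higher and 13.7% lower. In either direction 27.8% of the 36 and 24.5% of all probe sets were called, so the shares without regard to direction were close. By direction, the share of the 36 that rose was above the 10.9% of all probe sets. The share of the 36 that fell was below the 13.7%. These differences in share were not tested. The median over the 36 was 0.16, and 24 were above 0. Without double mutant array 1-2 the median turned to -0.016.

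The 9 genes that rose were led by the core H4 gene his-37, which gave 10.55, 11.40 and 11.37 in the double mutant, 10.51, 10.49, 11.56 and 11.77 in the daf-12 mutant and 10.53, 10.70, 11.45 and 11.74 in the wild type. Every array of the second set exceeded every array of the first in all 3 genotypes. The rise was 1.01 ± 0.11 (log2, SE, limma adjusted p = 0.000526). The H3.3 gene his-71 rose by 0.92 ± 0.21 (limma adjusted p = 0.0108). It gave 9.26, 10.93 and 10.88 in the double mutant, 10.10, 9.94, 10.37 and 10.32 in the daf-12 mutant and 9.61, 9.85, 11.09 and 10.41 in the wild type, so the sets separated in each genotype.

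The other core H4 genes that rose were his-64 by 0.95 ± 0.29 (limma adjusted p = 0.036), his-1 by 0.63 ± 0.15 (limma adjusted p = 0.0134) and his-38 by 0.63 ± 0.19 (limma adjusted p = 0.0335). The CENP-A gene hcp-3 rose by 0.68, the linker gene hil-1 by 0.53, his-73 by 0.50 and the H2A gene his-35 by 0.48. The linker gene hil-6 fell by 0.61 ± 0.20 (limma adjusted p = 0.0429). Of the 12 genes below 0 the other 11 did not pass, and the lowest of these were hil-8 (-0.37), his-70 (-0.36), his-69 (-0.33) and his-4 (-0.33). The brightest probe set of hil-3 gave -0.21 and its other one 0.01, and for his-24 these were 0.20 and -0.34, so the sign of both genes depended on the probe set. Neither was called.

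The calls by core class were looked at after the values were seen, and the difference between classes was not tested. Of the 6 H4 genes 4 rose, with a median of 0.63, while his-31 at 0.53 (limma adjusted p = 0.17) and his-67 at 0.10 did not pass. Of the 12 H2A, H2B and H3 genes only his-35 rose, and their median was 0.13. Over all probe sets 10.9% were called higher. Among the probe sets shared by several histone genes, of the 6 for H4, 5 were called higher, with a median of 0.95, and of the other 18, 0 were called, with a median of 0.05. The shared H4 probe set of his-10, his-26 and his-14 rose by 0.95 ± 0.21 (limma adjusted p = 0.00919), and one of his-18, his-28, his-50 and his-5 by 0.99 ± 0.21 (limma adjusted p = 0.00839). That of his-64, his-56, his-46 and his-60, at 0.15, did not pass. H4 copies are nearly identical, so these probe sets may read the same RNAs more than once. The same holds for the probe sets of his-1, his-38 and his-64, whose names end in x_at.

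These counts were sensitive to single arrays. Over all 36 genes the number called was 6 without double mutant array 1-2, 3 or 4 or wild type array 1, and 5 without wild type array 4. Of the 6 H4 genes, 2 were called when any double mutant or wild type array was left out, and of the 6 shared H4 probe sets, 2 were called without double mutant array 1-2. When the values were quantile normalized once more, 6 of the 36, 1 of the 6 H4 genes and 3 of the 6 shared H4 probe sets were called. Shares of all probe sets under these settings are not given here. Whether the fall in calls was particular to the histone genes therefore cannot be told.

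The size of the set difference varied with genotype. In the double mutant the median over the 36 genes was 0.75, 32 were higher in the second set and 31 had no overlap between the sets, where 41.1% of all probe sets separated upwards. In the daf-12 mutant the median was -0.39, 26 were lower in the second set and 22 had no overlap, where 40.4% separated downwards. In the wild type the median was 0.23, 25 were higher and 17 had no overlap, where 22.2% separated upwards. The medians therefore had opposite signs in the mutants, and the interaction tests given above apply to these differences.

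By class, the median set difference of the 6 H4 genes was 0.95 in the double mutant, -0.01 in the daf-12 mutant and 0.97 in the wild type, and that of the 12 H2A, H2B and H3 genes was 0.85, -0.39 and 0.22. For the linker genes these medians were 0.49, -0.64 and -0.03, and for the variants 0.96, -0.22 and 0.22. The shared H4 probe sets gave 1.21, 0.15 and 1.19, and the other shared probe sets 0.78, -0.58 and 0.23. Within H4, his-37 was higher in the second set by 0.84, 1.16 and 0.98 in the 3 genotypes, while his-64 gave 2.04, -0.03 and 1.21. In the daf-12 mutant his-37 was thus higher in the second set, while his-64 was level. These medians describe the genes and carry no test.

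**Figure D4:**
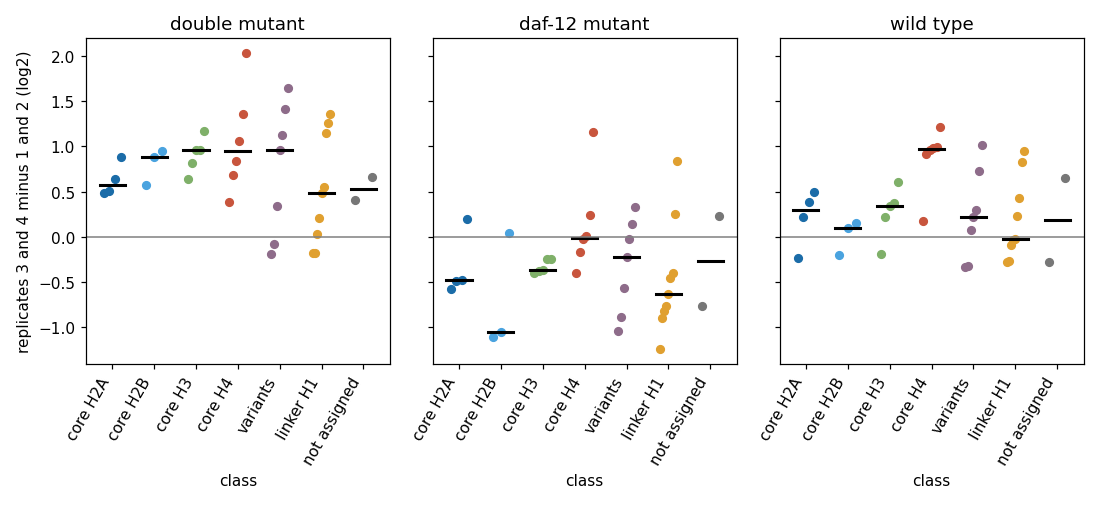
The log2 difference of arrays 3 and 4 from arrays 1 and 2 (vertical axis) is plotted for each histone gene by class (horizontal axis), in a panel for each genotype, with 1 point per gene. The 6 H4 genes have medians of 0.95, -0.01 and 0.97 in the double mutant, daf-12 mutant and wild type, and the linker genes have 0.49, -0.64 and -0.03.

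Genes that work on histones were taken as lists for comparison. In the comparison of the mutants, 0 genes were called in any of them. DNA replication and cell cycle genes, 39 of 40 measured, had a median of 0.46 with 37 above 0. Their mean deviation was 0.50 and 0.37 on double mutant arrays 3 and 4 and -0.36 and -0.37 on daf-12 mutant arrays 3 and 4. On those arrays it was close to that of the histone genes. It was less close on double mutant array 1-2 (-0.06 against -0.27) and on wild type arrays 2 (-0.04 against -0.28) and 3 (0.16 against 0.33). In 7 of the 39 all double mutant arrays lay above all daf-12 mutant arrays, against 0 of the 36 histone genes and 2.29% of all probe sets. The 6 measured histone mRNA processing genes had a median of 0.50 with 5 above 0, and the 17 centromere and kinetochore genes 0.45 with 15 above 0. The 19 chaperone and assembly genes had 0.21 with 17 above 0, the 19 acetylation genes 0.15 with 13 above 0 and the 24 methylation genes 0.14 with 15 above 0. Against the wild type, 0 genes of these lists were called in either mutant.

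Between the sets, where 10.9% of all probe sets were called higher and 13.7% lower, 4 of the 39 DNA replication genes rose and 2 fell, which is no more than those shares. The helicase subunit gene mcm-7 rose by 1.05 (limma adjusted p = 0.0179), rpa-1, for a subunit of the single-strand binding protein, by 0.69, and cdc-25.1, for a phosphatase that drives the cell cycle, fell by 0.82. Of the 6 histone mRNA processing genes snr-6, for an Sm protein, rose by 1.08. Of the 19 chaperone and assembly genes 8 rose and 1 fell, among them gfl-1 (0.81) and spt-16, for a subunit of the FACT complex (0.69), while ssl-1, for a SWR1-like remodeller of H2A.Z, fell by 0.64. Of the 17 centromere genes 4 rose and 0 fell, led by kbp-4 (0.95), him-10 (0.82) and bir-1 (0.82), and hcp-3, the centromeric histone itself, rose as given above. The rises in the chaperone and centromere lists were above the share of all probe sets, a difference that was not tested. The acetylation and methylation genes were called no more often than those shares in either direction. Of the 19 acetylation genes mys-1 (1.05) and hda-2 (0.68) rose and mys-4 (-0.76) and hda-4 (-0.39) fell. Of the 24 methylation genes mes-2, for a Polycomb H3 methyltransferase, rose by 0.75, and set-25 (-0.77), jmjd-2 (-0.61) and ash-2 (-0.48) fell.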

How the data were processed

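Total RNA of whole embryos was measured on Affymetrix arrays. The authors deposited log2 values, made with RMA per the submitters' processing notes; its version is not given in the sources used here. Of 22625 probe sets, 22548 remained after removal of 77 controls. By the annotation 20766 of them named 1 gene, 887 several and 895 none, and all 36 histone genes were in the RefSeq gene table of WBcel235, used for names and gene order alone. Group means were fitted with limma 3.58.1 (lmFit and eBayes) in R 4.3.3 over 11 arrays, with two-sided tests and Benjamini-Hochberg adjustment over all tested probe sets, and a call was an adjusted p under 0.05. The set difference was fitted beside genotype, and its interaction with genotype over the 6 combinations of genotype and set. The fits were tested on simulated data.

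The members and lists were chosen with earlier results of these data known. Named were the variant and linker genes, called genes up to 8 in each direction, the 4 largest differences in each direction of a comparison, the 5 brightest and 3 dimmest probe sets, genes whose probe sets differed in sign, and up to 3 called genes of a list. Other called genes of the second set alone, hda-4, ash-2 and the shared probe sets were named after their values were seen. Replicate numbers were shared by the genotypes and lay within the sets of arrays. Deviations from the group means correlated for equal numbers by 0.22 to 0.26 between the mutants and 0.33 to 0.49 between double mutant and wild type. Between daf-12 mutant and wild type they correlated by -0.03 to 0.67. A criterion of over 0.1 in every pair was thus met in the comparisons with the double mutant and not in the last one. Double mutant array 4 correlated best with array 3 in both other genotypes. Against the wild type, daf-12 mutant array 2 correlated best with array 1 and daf-12 mutant array 3 with array 4. Double mutant array 1-2 correlated best with daf-12 mutant array 2 and with wild type array 1. Equal numbers also share a set, so the criterion cannot show that they pair the samples. Alternatives were leaving out each array, a block for set or replicate number, either set alone, all 12 arrays, quantile normalization, a filter on dim probe sets, a trended variance and unique probe set endings.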

Additional observations from a re-analysis of the deposited data

Results flagged for a closer look

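In 72 groups of 4 arrays, 1 for each histone gene in the daf-12 mutant and the wild type, the gap of the highest or lowest array to its neighbour was set against the range of the group by Dixon's criterion, which chance passes in about 1 of 20 groups. It was passed in 3. For the CENP-A gene hcp-3, daf-12 mutant array 1 stood apart at 6.298, with 6.55, 6.56 and 6.58 on the others. For the H3 gene his-6, wild type array 4 stood apart at 10.216, below 10.56, 10.57 and 10.53. For the H2A.Z gene htz-1, wild type array 1 stood apart at 11.667, above 10.89, 10.98 and 10.91. In the other probe set of htz-1, wild type array 1 (7.448) lay near arrays 3 and 4 (7.364 and 7.431), and array 2 was lowest at 6.711.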

How the results depend on the processing

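The number of arrays, and the single double mutant array in the first set, limit every comparison of genotypes. In the comparisons of genotypes, leaving out an array called 0 of the 36 histone genes each time, and the median ranged from 0.236 to 0.594 between the mutants, 0.043 to 0.369 for the double mutant against the wild type and -0.299 to -0.136 for the daf-12 mutant against the wild type. The first set alone reversed these medians, to -0.247, -0.130 and 0.086, and the second set alone moved the first and last to 0.812 and -0.578 and called 18 genes between the mutants. With the replicate number as a block the medians were 0.348, 0.154 and -0.234 and 0 genes were called, so the block changed no call in these comparisons. With all 12 arrays the median between the mutants was 0.250. For the sets of arrays, 5 to 9 of the 36 were called with an array left out and the median ranged from -0.016, without double mutant array 1-2, to 0.254. Quantile normalization once more called 6, and the 14 genes with unique probe set endings gave 5 calls. The counts with an array left out or normalized again have no share of all probe sets beside them. Over those 14 the medians were 0.189 between the mutants, 0.003 for the double mutant and -0.199 for the daf-12 mutant, both against the wild type. The interaction between the mutants called 0 to 11 genes with an array left out, and could not be fitted without double mutant array 1-2, and that of the daf-12 mutant with the wild type called 0 to 12. The causes were not tested, beyond the smaller number of genes under unique endings. Of the named genes' results under the alternatives, 841 kept direction and side of the threshold, 39 lost the call, 18 gained it and 47 untested values moved.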

Other observations

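Several of the histone genes lie next to each other, at most 1 gene apart in the RefSeq table, in 7 runs. In the run his-1, his-2, his-3 and his-4, which holds a gene of each core class, the H4 gene his-1 rose by 0.63 between the sets, while his-2 gave 0.18, his-3 0.08 and his-4 -0.33. In the run his-35, his-41 and his-37, the H4 gene his-37 rose by 1.01 and the H2A gene his-35 by 0.48, and the H2B gene his-41 gave 0.29. The other 5 runs held no called gene. Of these, his-69 gave -0.33 and its neighbour his-70 -0.36, his-61 and his-62 gave -0.15 and -0.14 with his-59 at 0.18 in the same run, and his-31 gave 0.53 with his-32 at 0.24. The pair his-67 and his-68 gave 0.10 and 0.03, and the pair his-6 and his-39 gave -0.002 and -0.29. Some neighbours thus had close values and others did not. These runs were looked at after the values were seen, and the differences within them were not tested.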
